A study of Mus musculus with 8 samples.

Results

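The genes described here make, move and break down the monoamine transmitters serotonin, dopamine and noradrenaline. They were taken from the deposited table of raw read counts by gene symbol: Tph1, Tph2, Th, Ddc and Dbh for synthesis, Slc18a2 and Slc6a4 for transport, and Maoa and Maob for breakdown. All 9 had a row among the 24527 genes of the table. The tissue was frozen hippocampus from 8 wild-type males of the C57BL/6J strain, 20 weeks old. The 4 BPA mice were exposed to bisphenol A, a plastic monomer that can act on hormone receptors, at 50 mg per kg of diet through gestation and lactation. The 4 control mice had 0 mg in the same low-phytoestrogen diet over that period. Every animal ate the control diet from weaning on postnatal day 21. Polyadenylated RNA was selected and sequenced, and the exposure of the dam is the only difference between the groups that the labels give. Litters and dissection batches are not given in the sources used here, and each p-value therefore reflects only how these 8 animals varied.

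Monoamines are made by a short chain of enzymes. Tryptophan hydroxylase (Tph1 or Tph2) or tyrosine hydroxylase (Th) carries out the rate-limiting step, with tetrahydrobiopterin as cofactor, and the decarboxylase Ddc turns the products into serotonin or dopamine. Dbh converts dopamine into noradrenaline. The vesicular transporter Slc18a2 loads the amines into synaptic vesicles, Slc6a4 takes serotonin back up, and the mitochondrial oxidases Maoa and Maob degrade the amines. The hippocampus receives the axons of monoamine neurons whose cell bodies lie mainly in the brainstem, midbrain included. Tph1 is the form of the pineal gland and of peripheral tissues, and Tph2 is the form of serotonergic neurons.

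The promoters of Th, Slc18a2, Tph1 and Tph2 are printed because Th and Slc18a2 share an element while their levels differ, and because Tph1 and Tph2 are the 2 forms of one enzyme. They are RefSeq sequences on GRCm38.p6 and run 5′ to 3′ from 250 bases before to 10 bases after a transcript start. Capitals mark the cAMP response element TGACGTCA in Th and Slc18a2, the GC box GGGCGG or its reverse complement in Tph1, and the TATA box TATAAA in Tph2. The Th stretch is chr7:142899986-142900245 on the reverse strand, and the Slc18a2 stretch is chr19:59260628-59260887 on the forward strand. The Tph1 stretch is chr7:46667368-46667627 on the reverse strand, and the Tph2 stretch is chr10:115185013-115185272 on the reverse strand.
Th: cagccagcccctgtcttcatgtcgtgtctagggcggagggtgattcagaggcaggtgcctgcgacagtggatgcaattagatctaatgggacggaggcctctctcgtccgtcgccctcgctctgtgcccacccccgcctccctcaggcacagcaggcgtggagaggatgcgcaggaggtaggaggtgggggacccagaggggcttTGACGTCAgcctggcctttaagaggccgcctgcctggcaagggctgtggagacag
Slc18a2: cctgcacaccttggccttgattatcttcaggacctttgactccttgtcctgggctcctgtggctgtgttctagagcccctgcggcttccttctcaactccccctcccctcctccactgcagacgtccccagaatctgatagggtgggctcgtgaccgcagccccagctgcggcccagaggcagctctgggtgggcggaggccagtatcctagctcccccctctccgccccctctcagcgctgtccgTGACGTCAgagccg
Tph1: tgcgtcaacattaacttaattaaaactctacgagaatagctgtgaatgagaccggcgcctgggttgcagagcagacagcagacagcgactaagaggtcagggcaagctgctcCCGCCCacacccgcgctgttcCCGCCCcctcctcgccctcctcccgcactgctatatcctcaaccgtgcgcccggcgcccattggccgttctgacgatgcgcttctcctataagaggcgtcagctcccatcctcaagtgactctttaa
Tph2: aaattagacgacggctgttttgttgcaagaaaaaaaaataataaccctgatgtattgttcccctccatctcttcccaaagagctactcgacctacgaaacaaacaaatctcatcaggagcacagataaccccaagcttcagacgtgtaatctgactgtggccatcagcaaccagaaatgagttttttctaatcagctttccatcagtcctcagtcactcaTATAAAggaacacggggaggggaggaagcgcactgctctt

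The sequence table held 8 of the 9 members, with 10 starts. Maob was not among them. The 3 motifs were searched on both strands in windows of 300 bases, and none of the 3 overlaps another in its letters. TGACGTCA stood in the windows of Th and Slc18a2 and of no other member matched, at 45 and 4 bases before the start (positions -45 and -4), and in 1.79% of all 32851 promoter windows. TATAAA stood in Tph2 at position -30 and in 1 of the 2 windows of Ddc at position -68, and in 13.6% of all windows. The GC box stood in Maoa, Th, Slc18a2, Slc6a4 and in 1 of the 2 Tph1 windows, against 35.7% of all windows. A match describes the letters only.

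The libraries held 43.1 to 54.01 M counts (M, mega) in BPA mice and 27.1 to 40.8 M in control mice, without overlap (exact permutation p = 0.0286, two-sided, the smallest that 4 against 4 can give), so exposure and depth cannot be told apart. Levels are given as CPM, read counts per M counts of the library after TMM scaling. A single read was worth 0.0187 to 0.0381 CPM. Hippocampal neuron markers were all present, with 14 of 14 tested, and their summed level was 6186 to 6611 CPM in BPA mice and 5898 to 6700 CPM in control mice. Camk2a (4232 CPM on average), Slc17a7 (549 CPM) and Neurod6 (329 CPM) led that list. Choroid plexus markers, by contrast, stood far higher in control replicate 2 (3243 CPM summed) and in BPA replicate 3 (883 CPM) than in the other libraries (174 to 376 CPM). Of its 17 markers 16 were tested, all with an estimate below 0 and none past the edgeR test, and no gene of any other marker list passed. In such bulk tissue, fewer cells of a type and less RNA per cell cannot be told apart.

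No difference between BPA and control mice passed the adjusted test for the members that could be tested. The intervals given below hold only for the main test on these 8 libraries. Some alternatives gave estimates outside them, as for Tph1 and Th. Of the 9 members, 8 had enough counts for the edgeR quasi-likelihood test. After Benjamini-Hochberg adjustment 0 of them passed (edgeR lowest adjusted p 0.955), against 0% of all 15434 genes tested. DESeq2 gave a p for a different set of 8 members, with Slc6a4 in place of Tph1. Of these, 0 passed, against 0.0337% of 20749 genes. Of the 8 members tested by edgeR, 1 had an unadjusted edgeR p under 0.05, against 4.52% of all genes. That was Tph1, with its estimate lower in BPA mice, against 2.3% of all genes lower and 2.22% higher at that threshold. In 0 of the 8 members did the groups stand apart without overlap, against 2.79% of all genes. The estimate was above 0 for 3 members and below 0 for 5, with a median log2 fold change of -0.044, while 50% of all genes were above 0 with a median of 4.9e-05.

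**Figure D1:**
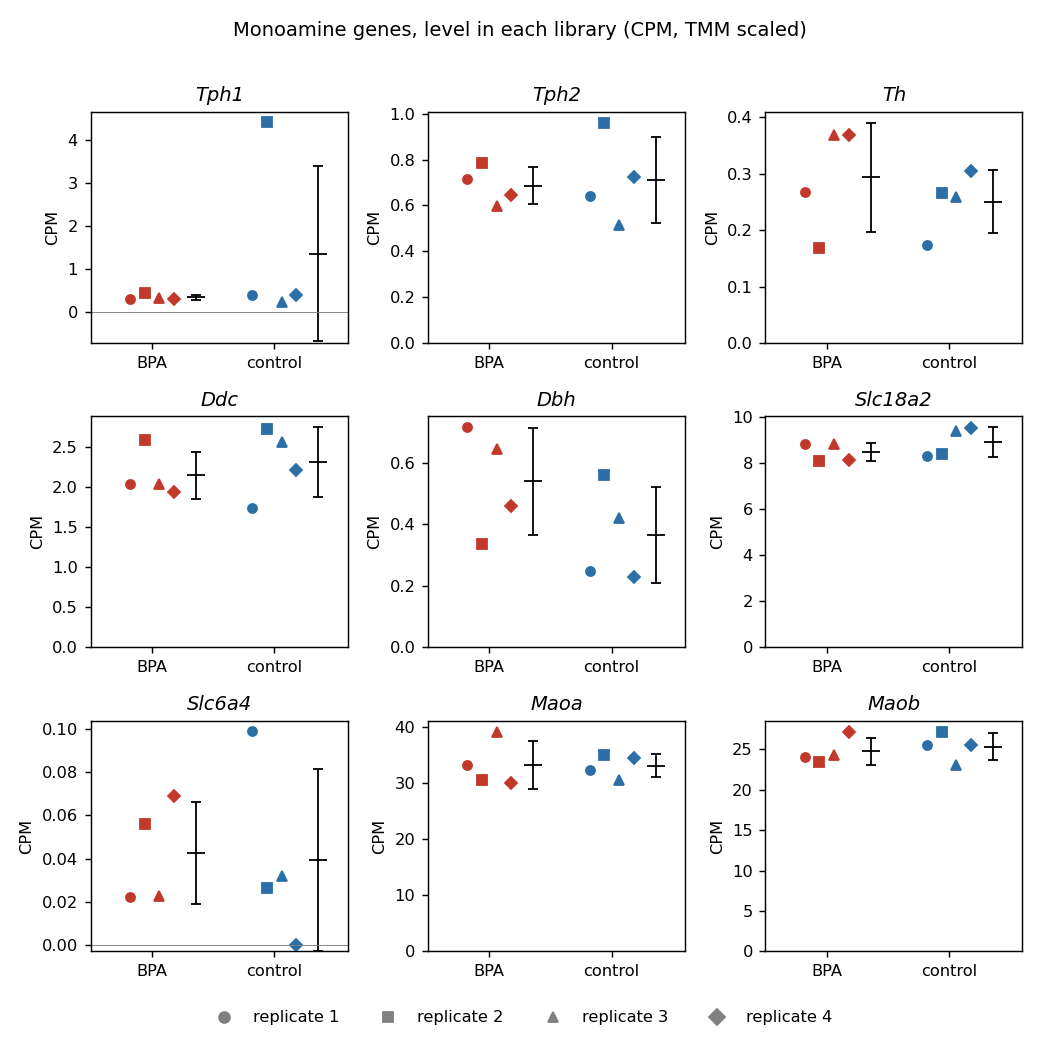
Level of each of the 9 monoamine genes in CPM (vertical axis, linear, its own scale per gene) in the 4 BPA and the 4 control libraries. Symbols mark the replicate number, and the black bar and whiskers give the mean ± SD of each group. The groups overlap for every gene, and Tph1 has 1 library, control replicate 2 at 4.42 CPM, far above the other 7.

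Tph1, the tryptophan hydroxylase of the pineal gland and periphery (chromosome 7, 46644641 to 46672537, reverse strand), was set apart by 1 library. Its reads were 13, 23, 14 and 13 in BPA replicates 1 to 4, against 16, 166, 7 and 10 in control replicates 1 to 4. In CPM these were 0.291, 0.429, 0.323 and 0.300 in BPA mice, against 0.395, 4.42, 0.226 and 0.381 in control mice. Control replicate 2 alone held a high level, and the other 3 control libraries lay in the range of the BPA libraries or just below it. The log2 fold change was -2.04 ± 0.79 (SE; edgeR adjusted p = 0.955), a fold of 0.243 (95% interval 0.0735 to 0.805), and the log2 fold change was 0.0090 without control replicate 2. DESeq2 returned no p for Tph1.

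Most markers of the pineal gland and the summed markers of the choroid plexus were highest in that library too. Of the 15 pineal markers, 11 had their highest CPM of the 8 libraries in control replicate 2, 3 (Rom1, Aanat and Asmt) did not, and Gngt1 was at 0 throughout. Some of the 11 rested on few reads or on scaling. Bsx and Pdc had 2 reads each there, Pdc as many as in BPA replicate 3, and Cngb1 had 27, as many as in BPA replicate 1. The share of all genes highest in that library was not computed. The genes that stood out most, chosen after their values were seen, were Crx and Rbp3. Crx, a transcription factor of pineal cells and photoreceptors, had 0 reads in each BPA library, against 0, 38, 0 and 1 reads in control replicates 1 to 4. Rbp3, a retinoid-binding protein of the same cells, had 1, 2, 8 and 2 reads in BPA replicates 1 to 4, against 4, 99, 2 and 1 in control replicates 1 to 4. Both were high in control replicate 2 alone, as Tph1 was.

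Summed over the 15 pineal markers, the level was 3.38 to 4.18 CPM in BPA mice and 3.58 to 10.4 CPM in control mice, and the highest control without replicate 2 was 4.27 CPM. The 3 markers with the highest mean level differed in this. Gngt2 reached 1.41 CPM in BPA mice and 1.49 CPM in control replicate 2. Rom1 was at 1.43 CPM in BPA replicate 3, against 1.53 CPM in control replicate 1 and 1.28 CPM in control replicate 2. Sag reached 0.830 CPM in BPA mice and 1.87 CPM in control replicate 2. Aanat and Asmt, the enzymes that turn serotonin into melatonin, had 1 read each in control replicate 2 and at most 2 in any other library. The summed choroid plexus markers in control replicate 2 are given above, and the highest of that list, Ttr, Enpp2 and Kl, averaged 305, 300.2 and 41.4 CPM over the 8 libraries. With the choroid plexus score as a covariate the Tph1 log2 fold change was -0.82 (edgeR adjusted p = 0.963), against -2.04 without it. That score, the mean log2 CPM of the markers, was itself highest in control replicate 2 (4.85), the library with the high Tph1 level. BPA replicate 3 had the next highest score (3.25), with 14 Tph1 reads (0.323 CPM). The part of pineal or choroid plexus RNA in the Tph1 reads was not tested.

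**Figure D2:**
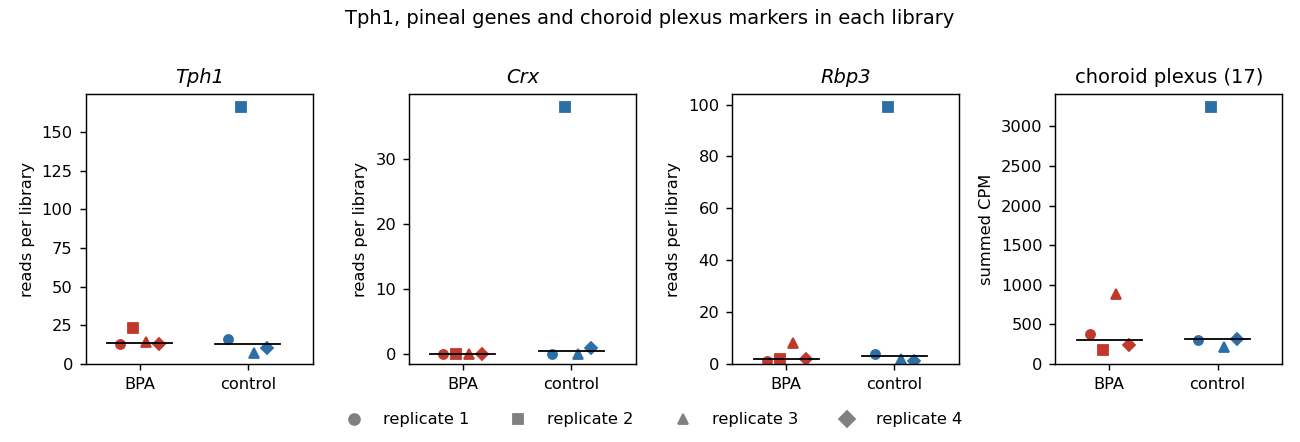
Reads per library of Tph1 and of the pineal genes Crx and Rbp3, and the summed CPM of 17 choroid plexus markers (vertical axes, linear), in 4 BPA and 4 control libraries; symbols mark the replicate number and black lines the group medians. Control replicate 2 has the highest value in all 4 panels, with 166 Tph1 reads, 38 Crx reads, 99 Rbp3 reads and 3243 CPM. Crx and Rbp3 were chosen from 15 pineal markers after their values were seen. Of the 15, 3 (Rom1, Aanat and Asmt) were not highest in that library, and Gngt1 had no read.

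Tph2, which makes serotonin in neurons (chromosome 10, 115078641 to 115185022, reverse strand), was detected in every library at a low level. It had 0.716, 0.784, 0.599 and 0.645 CPM in BPA replicates 1 to 4, against 0.642, 0.959, 0.517 and 0.724 CPM in control replicates 1 to 4. The highest and the lowest value were both in control libraries, and the BPA values lay between them. The fold was 0.964 (95% interval 0.693 to 1.34; edgeR adjusted p = 0.984). The reads, 128 in BPA mice and 97 in control mice in all, spread within groups about as much as counting error gives, with a chi-square per degree of freedom of 1.08.

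Th, the rate-limiting enzyme of dopamine and noradrenaline synthesis (chromosome 7, 142892752 to 142931128, reverse strand), had the lowest mean CPM of the members tested by edgeR. It had 12, 9, 16 and 16 reads in BPA replicates 1 to 4, against 7, 10, 8 and 8 in control replicates 1 to 4, or 0.293 ± 0.0961 CPM in BPA mice and 0.251 ± 0.0556 CPM in control mice (SD, n = 4 each). Scaled to depth, the groups overlapped, with BPA replicate 2 lowest of all 8 at 0.168 CPM and BPA replicates 3 and 4 highest at 0.369 CPM each. The fold was 1.17 (95% interval 0.707 to 1.95; edgeR adjusted p = 0.962). With library total as a covariate, which differs between the groups without overlap, the log2 fold change was 1.01 (edgeR adjusted p = 0.998), against 0.23 without it, and with 1 library left out it ran from 0.072 without control replicate 1 to 0.44 without BPA replicate 2. Chi-square per degree of freedom was 1.01 within groups.

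Ddc, the decarboxylase shared by the serotonin and dopamine pathways (chromosome 11, 11814101 to 11898144, reverse strand), had the highest level per kb of exon of the 5 synthesis genes. Its level was 2.03, 2.58, 2.03 and 1.94 CPM in BPA replicates 1 to 4, against 1.73, 2.72, 2.55 and 2.21 CPM in control replicates 1 to 4. Both ends of the range were again control libraries. The fold was 0.936 (95% interval 0.732 to 1.20; edgeR adjusted p = 0.965).

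Dbh, which makes noradrenaline from dopamine (chromosome 2, 27165233 to 27183200, forward strand), had the largest estimate above 0 among the members. It had 32, 18, 28 and 20 reads in BPA replicates 1 to 4, against 10, 21, 13 and 6 in control replicates 1 to 4. In CPM these were 0.716, 0.336, 0.645 and 0.461 in BPA mice, against 0.247, 0.560, 0.420 and 0.229 in control mice. BPA replicates 1 and 3 were above every control library, while BPA replicate 2 was below control replicates 2 and 3. The log2 fold change was 0.53 ± 0.34 (SE; edgeR adjusted p = 0.955), or 1.45-fold (95% interval 0.872 to 2.40). Without control replicate 2 the log2 fold change was 0.84 (edgeR adjusted p = 0.966), with an unadjusted p under 0.05. It was 0.36 without control replicate 1, 0.39 without control replicate 4, 0.37 without BPA replicate 1, and 0.29 after thinning all libraries to the smallest total. Chi-square per degree of freedom within groups was 2.52, above that of Th and Tph2.

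Slc18a2, the vesicular monoamine transporter (chromosome 19, 59260896 to 59296012, forward strand), varied little between libraries. It had 8.83, 8.08, 8.81 and 8.14 CPM in BPA replicates 1 to 4, against 8.28, 8.39, 9.39 and 9.49 CPM in control replicates 1 to 4. Control replicates 3 and 4 were above every BPA library, and control replicates 1 and 2 lay among the BPA values. The coefficient of variation was 4.85% in BPA mice and 7.22% in control mice. The fold was 0.954 (95% interval 0.851 to 1.07; edgeR adjusted p = 0.957), with the estimate below 0 in all but 1 of the alternatives run: with library total as a covariate the log2 fold change was 0.098. Slc18a2 shares 111 exonic bases with the antisense gene Gm29261, and because the sources used here do not say whether strand was used in counting, reads of these genes cannot be told apart there. Mast cells also use Slc18a2, and of 10 mast cell markers Fcer1a and Ms4a2 were at 0 in every library. The summed level of that list was 126 to 142 CPM in BPA mice and 130 to 147 CPM in control mice, nearly all from Kit (132 CPM on average), with Gata2 at 2.16 CPM and Hdc at 0.718 CPM; Cpa3, Tpsb2, Tpsab1, Cma1 and Mcpt4, which define the cells, had 1 to 12 reads each over the 8 libraries.

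Slc6a4, the serotonin transporter (chromosome 11, 76998603 to 77032340, forward strand), was too low in hippocampus for the main edgeR test. It had 1, 3, 1 and 3 reads in BPA replicates 1 to 4, against 4, 1, 1 and 0 in control replicates 1 to 4. Over each group these made 0.0432 CPM in BPA mice (exact Poisson 95% interval 0.0187 to 0.0852) and 0.0444 CPM in control mice (0.0163 to 0.0966), and both intervals cover counting error only. The ratio of the 2 rates was 0.974, with an exact interval of 0.296 to 3.41. DESeq2, run without the count filter, gave a log2 fold change of 0.036 (DESeq2 adjusted p = 0.999) from 14 reads in all. The 0 reads of control replicate 4 allow up to 0.114 CPM, by 3 counts of that library.

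Maoa, the oxidase that prefers serotonin and noradrenaline (chromosome X, 16619698 to 16687818, forward strand), had 33.3, 30.5, 39.2 and 29.9 CPM in BPA replicates 1 to 4, against 32.3, 35.1, 30.5 and 34.5 CPM in control replicates 1 to 4. BPA replicate 3 was the highest of the 8 and BPA replicate 4 the lowest. The fold was 1.00 (95% interval 0.888 to 1.13; edgeR adjusted p = 0.995). Without BPA replicate 3 the log2 fold change was -0.083.

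Maob, the oxidase known in the brain from astrocytes and serotonergic neurons (chromosome X, 16709282 to 16817366, reverse strand), had 24.0, 23.5, 24.3 and 27.2 CPM in BPA replicates 1 to 4, against 25.6, 27.2, 23.05 and 25.5 CPM in control replicates 1 to 4. The 2 ranges covered nearly the same interval. The fold was 0.975 (95% interval 0.886 to 1.07; edgeR adjusted p = 0.966). The 14 astrocyte markers summed to 9421 to 10674 CPM in BPA mice and 10595 to 12181 CPM in control mice, most of it from Slc1a2 (7627 CPM on average), followed by Slc1a3 (871 CPM) and Aldoc (398 CPM). Slc1a2, a glutamate transporter, was lower without overlap, at 6979 ± 522 CPM in BPA mice and 8274 ± 705 CPM in control mice, and did not pass the test (edgeR adjusted p = 0.955). It was the 1 marker of the 14 without overlap, against 2.79% of all genes. Of the 14, 8 had an estimate above 0 and 6 below, with a median log2 fold change of 0.0045. Their part in the Maob values was not tested.

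Maoa and Maob lie tail to tail on chromosome X, 21463 bases apart. For each 100 Maoa reads there were 72.1, 77.1, 62.0 and 90.8 Maob reads in BPA replicates 1 to 4, against 79.3, 77.6, 75.5 and 74.0 in control replicates 1 to 4. The mean was 75.5 ± 12.0 in BPA mice and 76.6 ± 2.36 in control mice (SD, n = 4 each). The BPA libraries stood on both sides of the control range, with BPA replicate 3 lowest and BPA replicate 4 highest, and the difference in spread was not tested.

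**Figure D3:**
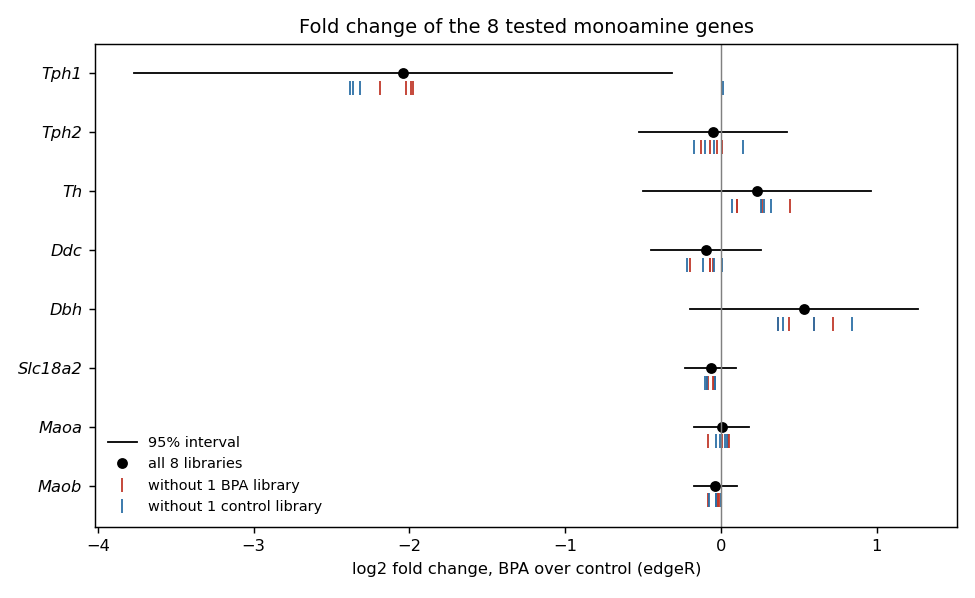
Log2 fold change of BPA over control (horizontal axis) for the 8 tested monoamine genes; black points are the edgeR estimates from all 8 libraries, black lines their 95% intervals, and ticks the estimates after leaving out 1 BPA or 1 control library. Intervals of 7 genes include 0, and the estimate for Tph1 goes to 0.0090 when control replicate 2 is left out.

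Per kb of exon, the members covered a wide range, and their medians had the same order in both groups. The level of Maob was 10.3 ± 0.690 CPM per kb in BPA mice and 10.5 ± 0.711 CPM per kb in control mice (SD, n = 4 each), above Maoa at 7.97 ± 1.01 CPM per kb in BPA mice and 7.94 ± 0.502 CPM per kb in control mice. Slc18a2 followed at 2.24 ± 0.108 and Ddc at 1.02 ± 0.139 CPM per kb in BPA mice, against 2.35 ± 0.170 and 1.10 ± 0.208 CPM per kb in control mice. These 4 genes did not overlap with their neighbours in the order over the 8 libraries.

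The lower members stood close together. Medians over the 8 libraries were 0.259 CPM per kb for Tph2, 0.173 for Dbh, 0.113 for Th and 0.0740 for Tph1, and neighbours among these 4 overlapped. Slc6a4 came last at 0.0105 CPM per kb, below Tph1 in all 8 libraries. Maob exceeded Maoa per kb in 8 of 8 libraries, though its counts were lower than those of Maoa, since its exons span 2411 bases against 4167. Th and Slc18a2, whose promoters share the TGACGTCA letters, were at 0.124 and 2.24 CPM per kb in BPA mice and at 0.106 and 2.35 CPM per kb in control mice. In CPM, 4 members (Maoa, Maob, Slc18a2 and Ddc) were above 1 CPM in every library, 4 (Th, Dbh, Tph2 and Slc6a4) were below 1 CPM in every library, and Tph1 was below 1 CPM in all but control replicate 2.

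**Figure D4:**
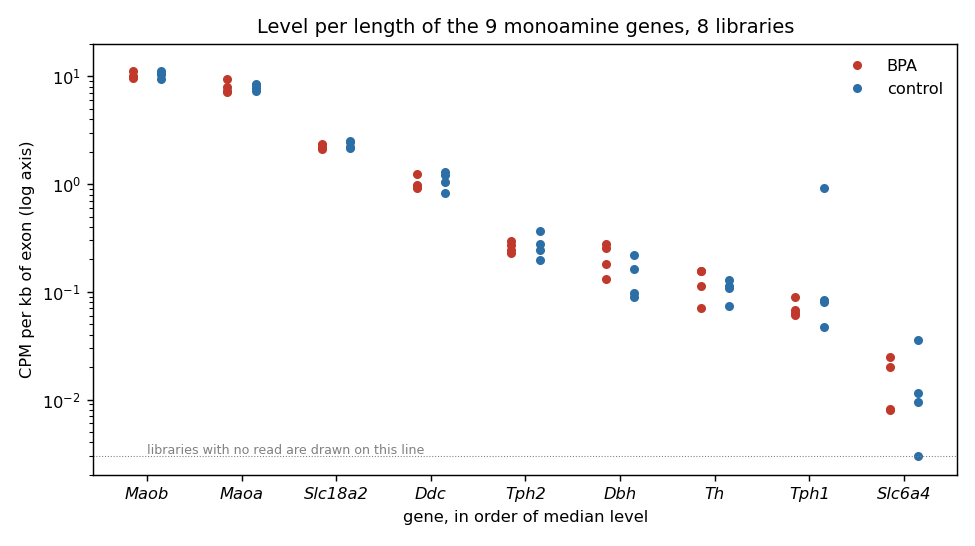
Level of the 9 genes per kb of annotated exon (vertical axis, CPM per kb, log scale) in the 8 libraries, BPA at the left and control at the right of each gene; genes run from the highest to the lowest median. Maob, Maoa, Slc18a2 and Ddc stand apart from their neighbours, and the control library with no Slc6a4 read is drawn on the dotted line.

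Of 14 markers of monoaminergic cell bodies, 5 had enough reads to be tested (Nr4a2, Slc17a8, Gata2, En2 and Slc10a4), and the other 9 had 0 to 10 reads each over the 8 libraries. Fev, of serotonergic neurons, had 4 reads over the BPA libraries and 4 over the control libraries. Phox2a, of noradrenergic neurons, had 1 read in BPA mice and 0 in control mice, and Pitx3, of dopaminergic neurons, had 2 reads in BPA mice and 0 in control mice. Foxa2 was at 0 in every library. The summed level of the list was 103 to 112 CPM in BPA mice and 83.7 to 130 CPM in control mice, nearly all from Nr4a2 (95.8 CPM on average), which hippocampal neurons also express, with Slc17a8 at 6.46 CPM, Gata2 at 2.16 CPM and En2 at 0.447 CPM.

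Of 10 markers of sympathetic neurons and adrenal chromaffin cells, Hand2 was at 0 in every library and Pnmt had 4 reads in all, while Gap43 (185 CPM), Chga (110.05 CPM) and Npy (93.4 CPM), which hippocampal neurons also express, led the list; its sum was 414 to 424 CPM in BPA mice and 363 to 446 CPM in control mice. Of 11 ependymal markers, all 10 tested had an estimate below 0 and none passed (edgeR lowest adjusted p 0.955). Their sum was 28.7 to 42.10 CPM in BPA mice and 32.8 to 60.2 CPM in control mice, highest in control replicate 2, and Dnah5 (10.2 CPM), Foxj1 (6.84 CPM) and Ak7 (3.85 CPM) led it. The 16 endothelial and pericyte markers, led by Rgs5 (137 CPM), Flt1 (69.3 CPM) and Slco1a4 (51.07 CPM), summed to 430 to 476 CPM in BPA mice and 436 to 492 CPM in control mice. Rgs5 was the 1 of the 16 without overlap, against 2.79% of all genes. It was lower in BPA mice and did not pass the test (edgeR adjusted p = 0.955).

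Other genes of the pathway did not pass either. Of 22 genes for uptake, methylation, further oxidation and related amines, 12 were tested and 0 passed. Estimates were above 0 for 7 and below 0 for 5 (median log2 fold change 0.019, from -0.31 to 0.24). Of the 12, 0 had an unadjusted edgeR p under 0.05, against 4.52% of all genes. That count ran from 0 to 2 over the alternatives run, with 2 of 12 without control replicate 2. Aldh2, which oxidises the aldehydes that the monoamine oxidases leave, was at 56.2 ± 3.89 CPM in BPA mice and 51.6 ± 4.30 CPM in control mice (SD, n = 4 each), a log2 fold change of 0.12 ± 0.066 (SE; edgeR adjusted p = 0.955). Its ranges overlapped between the groups.

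Other abundant genes of that list gave smaller estimates. Akr1a1, an aldehyde reductase, was the most abundant at 241 CPM on average, with a log2 fold change of 0.023. Aldh1a1 and Aldh3a2, further aldehyde dehydrogenases, were at -0.057 and -0.068, and Hnmt, which methylates histamine, at -0.061. At the other end, the noradrenaline transporter Slc6a2 had 1 read over the BPA libraries and 2 over the control libraries, and the dopamine transporter Slc6a3 had 12 and 21, too low to test. Akr1b3 was listed with 0 reads in every library, and the reason for this was not tested.

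For the tetrahydrobiopterin cofactor, 7 of 8 genes were tested, 0 passed, 2 had an estimate above 0 and 5 below, and the median log2 fold change was -0.093. Qdpr, which regenerates the cofactor, was at 48.4 ± 2.16 CPM in BPA mice and 51.7 ± 2.90 CPM in control mice (-0.093 ± 0.052). Spr, which completes its synthesis, was at 16.5 ± 1.19 CPM in BPA mice and 18.2 ± 0.991 CPM in control mice (-0.14 ± 0.066; edgeR adjusted p = 0.955), and Pts, the step before, at 11.7 ± 0.399 CPM in BPA mice and 12.6 ± 0.532 CPM in control mice (-0.11 ± 0.061). Pcbd1 and Pcbd2 were at -0.12 and 0.10. The summed level of the 8 genes was 86.3 to 89.8 CPM in BPA mice and 89.0 to 97.7 CPM in control mice, with control replicate 3 lowest of the control libraries and inside the BPA range. Aldh2, Qdpr and Pcbd2 share exonic bases with a gene on the opposite strand, so their counts are uncertain.

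**Figure D5:**
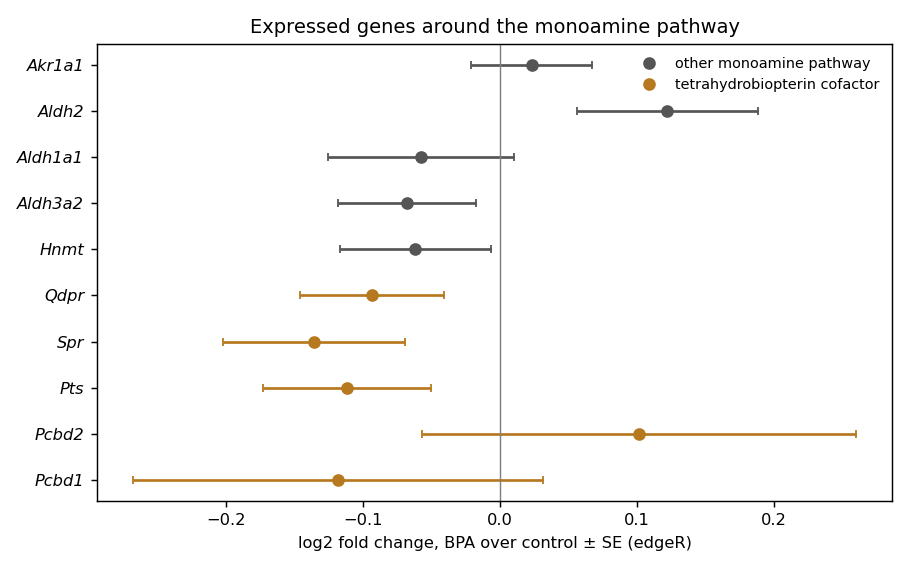
Log2 fold change of BPA over control ± SE (horizontal axis, edgeR) for 5 abundant tested genes of the wider monoamine pathway and 5 of the tetrahydrobiopterin cofactor. Estimates run from -0.14 for Spr to 0.12 for Aldh2, and none of the 10 passed the adjusted test.

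For each tested member, the 5 genes with the most similar pattern were found by Pearson's r of log2 CPM over the 8 libraries, which share depth and tissue makeup. They are given as a description. Picked as the highest from the 15434 genes tested over only 8 libraries, they reach a high r partly through that choice. Values without control replicate 2 are for genes already picked with that library included. Shared regulation was not tested. For Tph1 these were Ctnnal1, Col14a1, Rmdn1, Dct and Cfap69 (r 0.950 to 0.964). Dct, a melanin synthesis enzyme, had 13, 18, 11 and 6 reads in BPA replicates 1 to 4, against 8, 69, 3 and 7 in control replicates 1 to 4. Without control replicate 2 the same 5 genes had r of 0.379 to 0.723 over 7 libraries, so their likeness to Tph1 rested largely on that library.

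For Maoa the most similar genes were Sync, Trib2, Nxpe4, Rbm3, an RNA-binding protein induced by cold, and Cpxm1 (r 0.956 to 0.973, and 0.960 to 0.983 without control replicate 2). For Maob they were Cr1l, Tap1, Trpv2, Sgol2a and Dcbld2 (r 0.925 to 0.986). For Slc18a2 they were Rars, Jund, Rhbdl1, Sar1a and Hs2st1 (r 0.962 to 0.982), and for Ddc BB218582, Kiz, Ddx39, Exo5 and Oma1 (r 0.882 to 0.899). For Tph2 they were Osmr, Wdr70, Nhlrc3, Lrrc71 and Xrcc4 (r 0.921 to 0.955), for Dbh Zfp263, Caprin2, Wdr81, Oscp1 and Dcp1b (r 0.936 to 0.961), and for Th Cyba, Haus2, Nip7, Gbp10 and Stard4 (r 0.911 to 0.976). No member stood among the 5 of another.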

How the data were processed

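RNA of 8 hippocampi was measured, 1 library per mouse. The authors deposited raw read counts per gene symbol, not normalized; the tools named, per the submitters' processing notes, are featureCounts 1.5.0, STAR 2.3.0e, Trimmomatic 0.32 and DESeq2, with the build mm10, and per the file headers genes follow refGene. No strand setting is given in the sources used. Columns were matched to samples by the library code in each title, and groups come from the titles. Depth per library, 27.1 to 54.01 M counts, limits the precision of the low members.

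From these counts, genes too low to test were removed with filterByExpr of edgeR 4.0.16 (R 4.3.3; minimum count 10), which left 15434 of 24527. The main test was edgeR's quasi-likelihood test with TMM scaling, 1 group term, two-sided, with Benjamini-Hochberg adjustment over all genes at 0.05; it was tested on simulated counts. SE came from the test statistic. Alternatives used DESeq2 1.42.0 and limma 3.58.1. Other alternatives left out single libraries, added covariates or changed scaling and filter. Exon lengths, positions and overlaps come from GENCODE M21 on GRCm38 (mm10); exon length is the union of its basic transcripts and may differ from the counted gene models. Similarity used log2 CPM with a prior count of 2. Promoters are RefSeq's.

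The members and gene lists were chosen with earlier results of these data known. Named are all 9 members, the 6 most abundant tested genes of each pathway list and any that passed, the 3 most abundant genes of each marker list, and the 5 genes most like each tested member (predicted genes left out). Some genes that this rule names are not reported here; they remain in the tests and counts. Slc6a2, Slc6a3, Akr1b3, the low defining markers, Crx, Rbp3, Aanat, Asmt and the genes under Other observations were named after their values were seen. No library repeated another: over the 12 within-group pairs, chi-square per degree of freedom was 10.02 to 24.8.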

Additional observations from a re-analysis of the deposited data

Results flagged for a closer look

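Each group of 4 libraries was searched for a library far from the other 3, over 64 groups of values, and 7 were found; chance alone flags about 1 in 20. Tph1 was at 4.42 CPM in control replicate 2, against 0.226 to 0.395 CPM in the other controls. In the same library the pineal markers summed to 10.4 CPM, against 3.58 to 4.27 CPM in the other controls, and the choroid plexus markers to 3243 CPM, against 219 to 320 CPM. Ddc was at 2.58 CPM in BPA replicate 2, against 1.94 to 2.03 CPM in the other BPA mice. Qdpr was at 45.2 CPM in BPA replicate 4, against 49.3 to 49.7 CPM in the other BPA mice. The markers of monoaminergic neurons summed to 112 CPM in BPA replicate 2, against 103 to 105 CPM, a sum led by Nr4a2. The library total of BPA replicate 2 was 54.01 M counts, against 43.1 to 44.003 M in the other BPA mice. Across the 9 monoamine genes, control replicate 2 was the highest control library for 6: Maoa, Maob, Ddc, Dbh, Tph1 and Tph2. Some margins were small, as for Maoa (35.1 CPM, against 34.5 CPM in control replicate 4) and Ddc (2.72 CPM, against 2.55 CPM in control replicate 3). The share of all genes with that library as the highest control was not computed.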

How the results depend on the processing

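Results were recomputed under 16 alternatives and 1 added after seeing the data, the last leaving out control replicate 2 and BPA replicate 3 together, the libraries with the most choroid plexus RNA. edgeR called 0 genes under each of its settings, limma-voom 0 and DESeq2 7, and none of these was a monoamine gene; pathway and cofactor genes called were 0 under every alternative. edgeR's unadjusted p was under 0.05 for 698 genes as reported, 352 without BPA replicate 2 and 1156 without control replicate 3. For no member did the adjusted p pass under any alternative, and Th and Dbh kept an estimate above 0 under all 17. Leaving out 1 library at a time, log2 fold changes ran from -0.083 to 0.051 for Maoa, -0.084 to 7.1e-05 for Maob, -0.22 to 0.0038 for Ddc, 0.072 to 0.44 for Th, 0.36 to 0.84 for Dbh, -2.38 to 0.0090 for Tph1, -0.17 to 0.14 for Tph2, -0.10 to -0.037 for Slc18a2 and -0.35 to 1.03 for Slc6a4. Signs turned with limma-voom for Maoa (-0.0026), with thinning to the smallest library total for Maoa (-0.013), with library total as a covariate for Slc18a2 (0.098), and with the choroid plexus score as a covariate for Tph2 (0.016). Tph1 was at -0.98 with limma-voom, -0.82 with that score and -3.47 with library total as covariates. The added alternative gave -0.055 for Maoa, 0.0067 for Maob, 0.033 for Ddc, 0.029 for Tph1 and 0.20 for Tph2. Thinning moved Slc6a4, with 14 reads in all, to 0.99. The cause of these shifts was not tested. Library total as a covariate gave 1.01 for Th. The choroid plexus score gave 0.74 for Dbh (edgeR adjusted p = 0.963) and thinning 0.29. Slc6a4 has no value under limma-voom, the covariates or the replicate block, since it was not among the genes tested. Same-numbered animals did not deviate together (r of their deviations from the group means over genes -0.12, -0.37, -0.30 and 0.070 for numbers 1 to 4). These few values cannot decide whether the numbers pair the samples, and litters and batches are not given in the sources used here. With a replicate block edgeR called 0 genes (498 had an unadjusted p under 0.05) and gave -0.00085 for Maoa and -1.35 for Tph1; no sign but that of Maoa changed under the block. At 86 reads for Th, 148 for Dbh and 14 for Slc6a4 over 8 libraries, depth limits what could be seen.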

Other observations

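Some genes of the wider pathway, chosen after their values were seen, varied between single libraries. Hdc, which makes histamine, had 42, 33, 25 and 20 reads in BPA replicates 1 to 4, against 23, 60, 14 and 14 in control replicates 1 to 4, so that control replicate 2 was the highest for it too. Slc22a2, an organic cation transporter, had 3, 8, 40 and 6 reads in BPA replicates 1 to 4, against 13, 7, 1 and 1 in control replicates 1 to 4, and was too low to test. Its highest library, BPA replicate 3, is the BPA library with the most choroid plexus RNA. Control replicate 2, with the most choroid plexus RNA of all libraries, had 7 Slc22a2 reads. The part of that tissue in the Slc22a2 reads was not tested. Slc29a4, a low-affinity monoamine transporter, was at 21.4, 21.4, 21.3 and 21.0 CPM in BPA replicates 1 to 4, against 15.4, 25.7, 23.7 and 14.6 CPM in control replicates 1 to 4. The 4 BPA libraries lay close together inside the wider control range, and the log2 fold change was 0.097 ± 0.15 (SE; edgeR adjusted p = 0.962). Tdo2, which diverts tryptophan away from serotonin, was at 6.31, 7.06, 6.22 and 6.25 CPM in BPA replicates 1 to 4, against 4.50, 6.53, 6.04 and 5.03 CPM in control replicates 1 to 4, a log2 fold change of 0.23 ± 0.12 (SE; edgeR adjusted p = 0.955).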
